A study of Mus musculus with 6 samples.

Results

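Igsf1 and 8 genes of thyroid hormone signalling were followed in RNA sequencing of the mouse habenula. The 9 genes were taken from a table of 55359 genes by their symbols. Igsf1 was included because its level was higher in the Tet2 cKO columns, so its difference between the groups is a description and was not tested. The other 8 genes (Trh, Trhr, Thra, Thrb, Dio2, Dio3, Slco1c1 and Crym) were included for their place in the pathway.

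Tissue was taken from the habenula, an epithalamic region that relays forebrain signals to midbrain monoamine nuclei, in C57BL/6 mice aged 2 months. There were 3 libraries labelled Tet2 cKO, a conditional knockout of the DNA 5-methylcytosine dioxygenase Tet2, and 3 WT libraries. The labels name neither the driver of the deletion nor the exons removed, and they do not say that the libraries are from different animals. P-values therefore measure the spread between these libraries, which may be technical.

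Thyroid hormone output is set by a relay in which thyrotropin-releasing hormone from the hypothalamus acts on its receptor in the pituitary, which then releases thyrotropin. In the brain the prohormone thyroxine is taken up through transporters in barrier cells and glia, converted to the active triiodothyronine by the type 2 deiodinase, and inactivated by the type 3 deiodinase. Triiodothyronine acts through nuclear receptors that repress or activate target genes. IGSF1 is a membrane glycoprotein of the immunoglobulin superfamily whose loss in humans causes X-linked central hypothyroidism, and mice without it have low levels of the TRH receptor in the pituitary.

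Igsf1 (ENSMUSG00000031111) lies on the minus strand of chromosome X, 49782536 to 49797749 on GRCm38, and 5 transcripts are annotated there. RefSeq (GRCm38.p6) gives 3 start sites, and the gene count does not tell transcripts from them apart. The 250 bases before each start are shown because they differ in CpG dinucleotides, the sequence that Tet2 acts on when its cytosine is methylated. Capitals mark each CpG, and the bases run 5′ to 3′ on the minus strand at chrX:49797746-49797995, chrX:49795365-49795614 and chrX:49788244-49788493.
Igsf1 start 1: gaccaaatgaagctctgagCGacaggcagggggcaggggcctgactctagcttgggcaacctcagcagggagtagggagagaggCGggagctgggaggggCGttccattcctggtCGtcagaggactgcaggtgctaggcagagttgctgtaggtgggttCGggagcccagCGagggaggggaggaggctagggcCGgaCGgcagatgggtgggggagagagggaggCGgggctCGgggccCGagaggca
Igsf1 start 2: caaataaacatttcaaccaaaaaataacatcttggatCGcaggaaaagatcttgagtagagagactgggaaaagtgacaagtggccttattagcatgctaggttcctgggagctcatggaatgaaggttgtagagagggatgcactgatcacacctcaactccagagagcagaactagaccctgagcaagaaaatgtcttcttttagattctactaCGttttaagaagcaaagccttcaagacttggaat
Igsf1 start 3: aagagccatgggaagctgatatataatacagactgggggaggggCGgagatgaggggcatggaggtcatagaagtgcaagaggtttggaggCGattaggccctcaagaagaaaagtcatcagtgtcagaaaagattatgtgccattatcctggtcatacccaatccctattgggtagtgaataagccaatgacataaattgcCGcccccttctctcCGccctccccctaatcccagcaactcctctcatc
The windows hold 11, 2 and 4 CpG, against a median of 6 over the 32851 promoter windows of the same length. Of all windows, 64.4%, 18.8% and 37.8% held fewer. Methylation was not measured here, so the CpG counts describe the sequence only. The core motif of thyroid hormone receptors, AGGTCA, was searched on both strands and occurred in the window of start 3, as it did in 14.0% of all windows. Of the other genes with a window, it occurred in that of Trh and in 1 of the 2 windows of Thrb. The paired site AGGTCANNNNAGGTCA occurred in none of the 9 windows of the 6 genes matched, and in 0.0152% of all windows. The Slco1c1 window held 0 CpG and that of Trh held 25.

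Library totals lay between 16089676 and 17917987 counts. Tet2 itself stood at 4.47, 4.02 and 3.96 FPKM (counts scaled to exonic length and library total) under the Tet2 cKO label, against 3.45, 3.46 and 3.71 FPKM in WT. The whole-gene level was thus not lower under that label, and the directions below are those of the libraries so labelled. The habenula markers Calb2, Gpr151 and Tac2 were present in every library, and 10 of 12 habenula markers had their lowest value in WT replicate 3. Values without that library are given below for Igsf1, Trh, Slco1c1, Dio2, Thra and Thrb, and for some of the other genes and lists. All 6 libraries expressed the Y-linked genes Ddx3y, Eif2s3y, Kdm5d and Uty, each at 2.12 FPKM or more, and Xist was at most 0.02 FPKM, so sex did not differ between the groups. With edgeR's quasi-likelihood test and Benjamini-Hochberg adjustment, 0 of 14539 genes (0%) passed the threshold of 0.05. Without adjustment 374 genes (2.57%) were under it, 0.894% with the Tet2 cKO label higher and 1.68% with it lower. DESeq2 called 4 genes (0.0275%) and limma called 0.

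Igsf1 stood at 11.79, 11.75 and 11.53 FPKM in the libraries labelled Tet2 cKO, against 8.72, 6.16 and 6.76 FPKM in WT. The 3 libraries labelled Tet2 cKO lay close together and all above the highest WT library. The means were 11.7 ± 0.140 FPKM and 7.21 ± 1.34 FPKM (SD, n = 3 each), a ratio of 1.62. In counts, the libraries held 1186, 1214 and 1189 under the Tet2 cKO label, against 870, 572 and 692 in WT. The coefficient of variation was 1.20% under the Tet2 cKO label, below the 2.87% to 2.90% that counting alone gives at these counts. In WT it was 18.6%, against a counting error of 3.39% to 4.18%. The spread of Igsf1 was thus nearly all in the WT libraries.

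The fitted log2 difference of Igsf1 was 0.69 (SE 0.119). Ranked from the highest difference down, it was 115th among 14539 tested genes. It was 7th among the 5972 genes within a factor of 2 of its mean level. In these ranks, genes lower under the Tet2 cKO label come after it, however large their difference. Groups that did not overlap with the Tet2 cKO label higher were found for 485 tested genes, or 3.34%. Since Igsf1 was picked on this contrast, these positions are given only to place it. The difference was 0.65 without WT replicate 3. Without WT replicate 1, the highest WT library, it was 0.85, and without WT replicate 2, the lowest, it was 0.58.

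**Figure D1:**
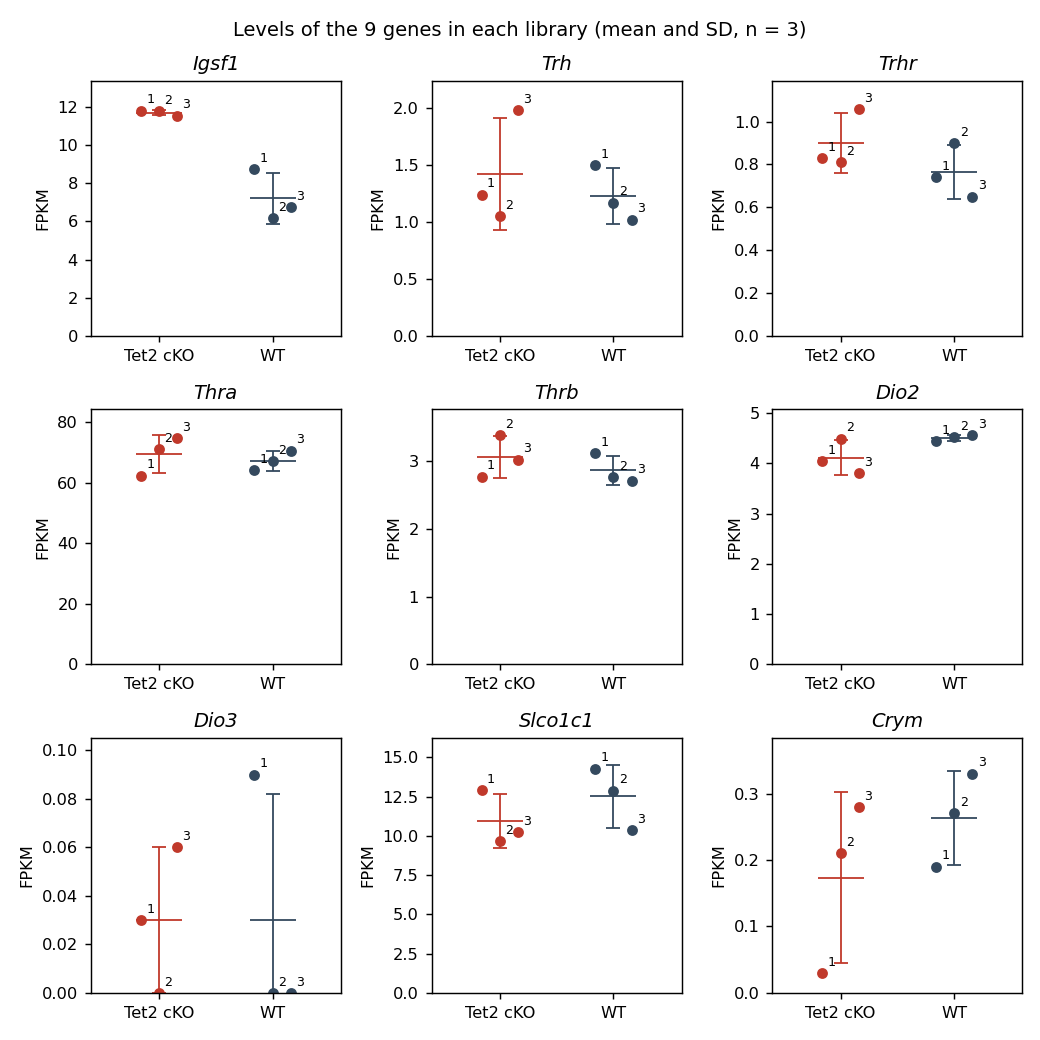
FPKM of each of the 9 genes in the libraries labelled Tet2 cKO (left, red) and WT (right, dark blue); points are libraries with their replicate numbers, and bars are the mean and SD of 3 libraries. The Igsf1 points lie at 11.53 to 11.79 FPKM under the Tet2 cKO label and at 6.16 to 8.72 FPKM in WT, while the points of the other 8 genes overlap between the groups.

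The groups overlapped in each of the genes nearest to Igsf1. The 3 nearest tested genes on its side of lower coordinates were Enox2, Arhgap36 and Gm14719, with log2 differences of 0.19 (SE 0.120), -0.12 (SE 0.230) and -0.29 (SE 0.592). On the other side were the long non-coding RNA gene Firre at 0.005 (SE 0.0726), the small GTPase gene Rap2c at 0.05 (SE 0.0775) and the heparan sulfate sulfotransferase gene Hs6st2 at -0.14 (SE 0.123). Of these, Arhgap36, Gm14719 and Firre changed sign when single libraries were left out. Over the 503 tested genes of chromosome X the median log2 difference was 0.0085, and 15 genes (2.98%) had groups that did not overlap with the Tet2 cKO label higher.

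**Figure D2:**
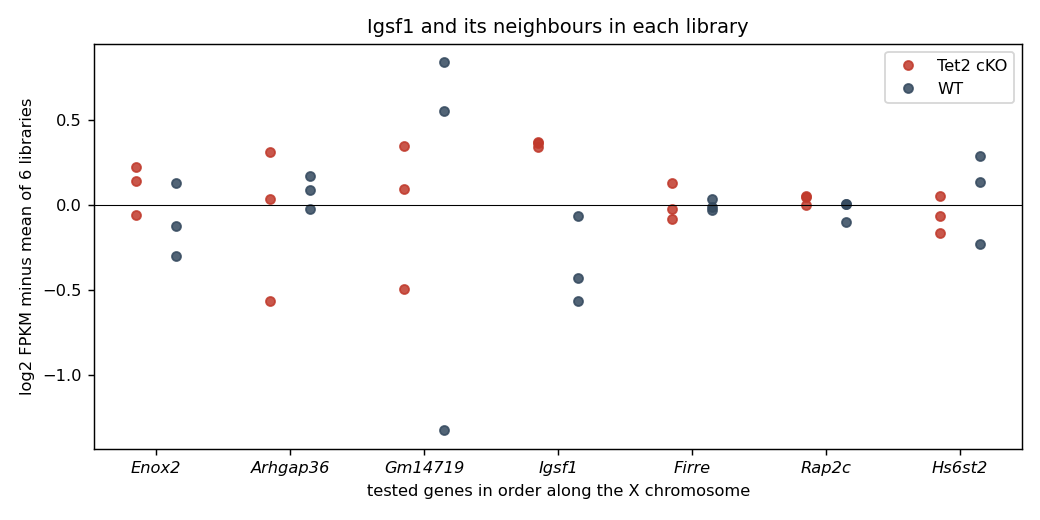
Log2 FPKM of Igsf1 and of the 3 nearest tested genes on each side, relative to the gene's mean over the 6 libraries (y axis), in order along chromosome X (x axis); points are libraries, those labelled Tet2 cKO in red on the left of each pair and WT in dark blue on the right. The groups lie apart for Igsf1 and overlap for the 6 neighbours.

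With predicted genes, clones and pseudogenes left out, the genes whose profile over the 6 libraries was most like that of Igsf1 were Tgfbi, Ddit4, Pstpip2, Npl and Ifitm1. Likeness was the root mean square difference of log2 CPM after centring each gene, which was 0.117, 0.156, 0.167, 0.175 and 0.179 for these genes and had a median of 0.405 over all tested genes. Of those left out, 1 had a difference under 0.1. Any with a difference between 0.1 and 0.117 were not counted. Tgfbi, an extracellular matrix protein gene induced by TGF-beta, stood at 2.48, 3.05 and 2.65 FPKM in the libraries labelled Tet2 cKO, against 2.27, 1.50 and 1.78 FPKM in WT. Ddit4, a stress-induced inhibitor of mTORC1, stood at 39.9, 45.7 and 43.5 FPKM in the libraries labelled Tet2 cKO, against 35.3, 29.9 and 25.9 FPKM in WT. In Tgfbi, as in Igsf1, WT replicate 1 was the highest WT library and WT replicate 2 the lowest. These genes were chosen for this pattern, so it is not a separate result.

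Trh (ENSMUSG00000005892, chromosome 6, 92242061 to 92244650, minus strand), which encodes the precursor of thyrotropin-releasing hormone, was near the lower limit of what was tested, with 25 to 49 counts a library. It stood at 1.24, 1.05 and 1.98 FPKM in the libraries labelled Tet2 cKO, against 1.50, 1.17 and 1.02 FPKM in WT. The groups overlapped, and the highest value was Tet2 cKO replicate 3. The log2 difference was 0.20 (95% interval -0.49 to 0.89), and Trh did not pass the edgeR test (unadjusted p = 0.527, adjusted p = 0.9999). The difference was 0.09 when WT replicate 3 was left out and -0.11 when Tet2 cKO replicate 3 was. The interval is wide enough to hold either direction at this depth.

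Trhr (ENSMUSG00000038760, chromosome 15, 44196135 to 44235912, plus strand), the receptor through which TRH acts on the pituitary, stood at 0.83, 0.81 and 1.06 FPKM in the libraries labelled Tet2 cKO, against 0.74, 0.90 and 0.65 FPKM in WT. Its mean lay under the minimum of 1 FPKM, so it was read from the fit without a filter on low values, which called 49 of 31689 genes (0.155%). There its log2 difference was 0.24 (95% interval -0.24 to 0.72; edgeR unadjusted p = 0.323, adjusted p = 0.970). Trhr2, the second TRH receptor gene of rodents, stood at 2.52, 3.79 and 4.38 FPKM in the libraries labelled Tet2 cKO, against 3.24, 3.80 and 3.24 FPKM in WT. Per length, Trhr2 was higher than Trhr in every library. The factor was 3.95 ± 0.837 under the Tet2 cKO label and 4.53 ± 0.403 in WT (SD, n = 3 each). In counts the 2 genes were closer, with 59 to 105 a library for Trhr2 and 46 to 76 for Trhr. The groups overlapped for both receptors.

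Of the 14 genes listed for the TRH and thyrotropin axis, 9 entered the fit. Without Igsf1, which was picked for its direction, there were 8, of which none passed, with 6 log2 differences above 0 and 2 below, where 49.1% of all tested genes were above 0 and 50.9% below. Their median was 0.08, against -0.0021 over all tested genes. With Igsf1 the median was 0.11, and it lay between 0.02 (without WT replicate 3) and 0.16 (without WT replicate 2) when single libraries were left out. The processing enzymes of peptide hormones Cpe, Pcsk2 and Pam differed by 0.11, -0.07 and 0.11, and Tbl1x, a corepressor subunit whose gene is also mutated in central hypothyroidism, by -0.05. Signs changed between alternatives for Pcsk2, Pam and Tbl1x, and Cpe stayed above 0. Trhde, which encodes the ectoenzyme that degrades TRH, was named after its values were seen. It stood at 1.24, 1.43 and 1.28 FPKM in the libraries labelled Tet2 cKO, against 0.82, 1.23 and 1.01 FPKM in WT, a log2 difference of 0.37 (95% interval 0.01 to 0.73; edgeR unadjusted p = 0.0458, adjusted p = 0.9999). Its lowest library under the Tet2 cKO label lay just above its highest WT library. The difference was 0.24 when WT replicate 1 was left out, and its lowest value over the alternatives was 0.20.

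Slco1c1 (ENSMUSG00000030235, chromosome 6, 141524368 to 141570177, plus strand) encodes the thyroxine transporter OATP1C1 of brain capillaries, choroid plexus and astrocytes. It stood at 12.90, 9.65 and 10.25 FPKM in the libraries labelled Tet2 cKO, against 14.29, 12.88 and 10.37 FPKM in WT. The groups overlapped, since Tet2 cKO replicate 1 lay above WT replicates 2 and 3. The log2 difference was -0.20 (95% interval -0.50 to 0.10; edgeR unadjusted p = 0.163, adjusted p = 0.9999). Leaving out WT replicate 3 gave -0.31, leaving out WT replicate 1 gave -0.09, and leaving out Tet2 cKO replicate 1 gave -0.33.

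Of 9 genes listed for transporters and their subunits, 6 were tested, none passed, and all 6 differences were below 0, with a median of -0.10. When single libraries were left out the median lay between -0.21 (WT replicate 3) and -0.03 (WT replicate 1). The amino acid transporter subunit genes Slc3a2, Slc7a8 and Slc7a5 differed by -0.02, -0.18 and -0.02. The organic anion transporter gene Slco1a4 differed by -0.01. All of these but Slc7a8 changed sign between alternatives.

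Markers of the choroid plexus had lower values under the Tet2 cKO label as well. All 13 had a log2 difference below 0, against 50.9% of all tested genes, and none was at 0 in every library. The groups overlapped for all but 1 of the 13, where 3.46% of all tested genes had groups apart in this direction. The summed level of the 13 was 924, 227 and 345 FPKM in the libraries labelled Tet2 cKO, against 1604, 954 and 511 FPKM in WT. Most of this sum was Ttr, at 799, 158 and 269 FPKM in the libraries labelled Tet2 cKO, against 1347, 802 and 430 FPKM in WT. Within each group, Slco1c1 put the libraries in the same order as this sum. Markers of brain endothelium, another site of Slco1c1, summed to 168, 145 and 149 FPKM in the libraries labelled Tet2 cKO, against 158, 158 and 160 FPKM in WT, with 2 of 12 log2 differences above 0 and none at 0 in every library. Their sum had the order of Slco1c1 under the Tet2 cKO label but not in WT. The part of these cells in the Slco1c1 values was not tested. In such bulk tissue, fewer cells of a type and less RNA per cell cannot be told apart.

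**Figure D3:**
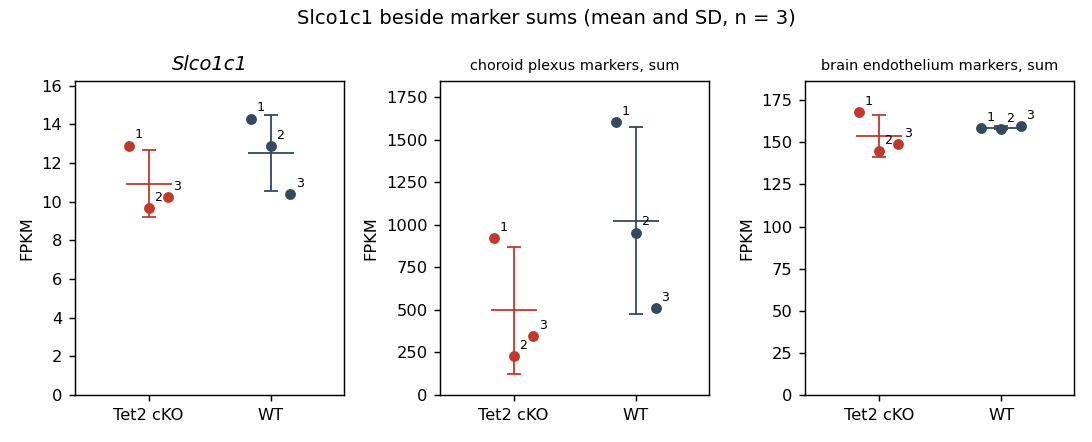
FPKM of Slco1c1 and the summed FPKM of 13 choroid plexus and 12 brain endothelium markers, in the libraries labelled Tet2 cKO (left, red) and WT (right, dark blue); points are libraries with their replicate numbers, and bars are the mean and SD of 3 libraries. Slco1c1 and the choroid plexus sum are highest in WT replicate 1 and lowest in Tet2 cKO replicate 2.

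Dio2 (ENSMUSG00000007682, chromosome 12, 90724552 to 90738438, minus strand), the activating type 2 deiodinase of astrocytes and tanycytes, stood at 4.05, 4.49 and 3.80 FPKM in the libraries labelled Tet2 cKO, against 4.44, 4.52 and 4.56 FPKM in WT. The WT libraries lay close together, and Tet2 cKO replicate 2 fell among them. The log2 difference was -0.14 (95% interval -0.35 to 0.07; edgeR unadjusted p = 0.166, adjusted p = 0.9999) and -0.12 without WT replicate 3. Leaving out each library gave -0.21 to -0.08. Of the exonic bases of Dio2, 100 of 5815 overlap Gm26512 on the opposite strand, at 0.41 to 0.71 FPKM under the Tet2 cKO label and 0.55 to 0.82 FPKM in WT.

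Astrocyte markers were mostly on the other side of 0. Of 12 astrocyte markers, 9 had a log2 difference above 0, none was at 0 in every library, and their sum was 550 to 559 FPKM under the Tet2 cKO label and 511 to 524 FPKM in WT. The most abundant were the glutamate transporter gene Slc1a2 at 0.06, the angiotensinogen gene Agt at 0.04 and the calcium-binding protein gene S100b at -0.13, and Slc1a2 and Agt changed sign between alternatives. Aqp4 and Sox9 were named after their values were seen. Aqp4 stood at 62.5, 59.8 and 55.3 FPKM in the libraries labelled Tet2 cKO, against 46.7, 43.5 and 28.8 FPKM in WT. The means were 59.2 and 39.7 FPKM. The log2 difference of Aqp4 was 0.57 (SE 0.151), and 0.39 without WT replicate 3, its lowest library. Sox9, 1 of the 3 markers below 0, was at -0.26. The 7 tanycyte markers, which include Dio2 and Crym themselves, summed to 9.02 to 10.3 FPKM under the Tet2 cKO label and 9.15 to 10.4 FPKM in WT, and none was at 0 in every library. The most abundant besides Dio2 were Vcan, at 2.07 to 2.15 FPKM under the Tet2 cKO label and 1.75 to 1.88 FPKM in WT, and Adm, whose groups overlapped. Of all tested genes, 3.34% had groups apart in the direction of Vcan. Others went the other way at levels too low to be tested. Col23a1 was at 0.24 to 0.35 FPKM under the Tet2 cKO label and 0.38 to 0.69 FPKM in WT. Scn7a was at 0.56 to 0.62 and 0.61 to 1.08 FPKM. Rax showed 1, 3 and 1 counts under the Tet2 cKO label, against 3, 2 and 3 counts in WT. The part of astrocytes and tanycytes in the Dio2 values was not tested.

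Dio3 (ENSMUSG00000075707, chromosome 12, 110279068 to 110281097, plus strand), the inactivating type 3 deiodinase, showed 1, 0 and 2 counts across the libraries labelled Tet2 cKO, against 3, 0 and 0 counts in WT. The level that 3 counts would give was 0.0825 to 0.0847 FPKM under the Tet2 cKO label and 0.0833 to 0.0918 FPKM in WT. No library held more than 3 counts, so a difference was not detectable at this depth. Dio1, the deiodinase gene of liver and kidney, showed 2, 0 and 1 counts across the libraries labelled Tet2 cKO, against 1, 0 and 0 counts in WT. Proteins that control the type 2 enzyme were better measured. Wsb1, an adaptor of the ligase that ubiquitinates it, differed by -0.02 (SE 0.0984), the deubiquitinases Usp33 and Usp20 by 0.04 (SE 0.134) and 0.06 (SE 0.0830), and the selenocysteine insertion factor Secisbp2 by -0.01 (SE 0.111), all 4 changing sign between alternatives. Of the 7 genes listed with the deiodinases, 5 were tested and none passed, 2 above 0 and 3 below, with a median of -0.0058.

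Crym (ENSMUSG00000030905, chromosome 7, 120186380 to 120202111, minus strand) encodes mu-crystallin, a cytosolic protein that binds triiodothyronine. It was scarce, with 2, 13 and 17 counts under the Tet2 cKO label, against 11, 15 and 20 counts in WT. Tet2 cKO replicate 1 was the lowest and the other 5 libraries overlapped. In the fit without a filter its log2 difference was -0.58 (95% interval -1.52 to 0.36; edgeR unadjusted p = 0.223, adjusted p = 0.970).

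Of the 6 listed binding proteins, 3 were tested and none passed. Ttr, the transthyretin gene, which carries thyroxine in cerebrospinal fluid and is a choroid plexus marker, stood at 799, 158 and 269 FPKM in the libraries labelled Tet2 cKO, against 1347, 802 and 430 FPKM in WT. The groups overlapped, with a log2 difference of -1.09 (95% interval -2.30 to 0.13; edgeR unadjusted p = 0.0739, adjusted p = 0.9999) that became -0.60 when WT replicate 1 was left out and -2.02 when Tet2 cKO replicate 1 was. Pkm, whose enzyme also binds triiodothyronine, differed by -0.02 (SE 0.0626), with a sign that changed between alternatives, and the aldehyde dehydrogenase gene Aldh1a1 by 0.12 (SE 0.0950). The median of the 3 was -0.02. Albumin, Alb, lay under the minimum level, with 65 to 73 counts in each library labelled Tet2 cKO and none in WT. In the fit without a filter, Ttr and Alb were both among the genes called (edgeR adjusted p = 5.54e-05 and 3.53e-19). There the log2 difference of Ttr was -1.08, nearly as in the main fit, but its SE was 0.178 against 0.543. The call of Ttr thus depends on the fit.

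The groups overlapped for both nuclear receptors. Thra (ENSMUSG00000058756, chromosome 11, 98740638 to 98769006, plus strand), the gene of thyroid hormone receptor alpha, the main form in neurons, stood at 62.4, 71.2 and 74.8 FPKM in the libraries labelled Tet2 cKO, against 64.1, 67.0 and 70.6 FPKM in WT. The WT range lay wholly within that of the libraries labelled Tet2 cKO. The log2 difference was 0.04 (95% interval -0.15 to 0.22; edgeR unadjusted p = 0.650, adjusted p = 0.9999). It became 0.09 when WT replicate 3 was left out and -0.016 when Tet2 cKO replicate 3 was. The gene count joins the hormone-binding and non-binding isoforms of Thra. It also shares 263 of its 4614 exonic bases with the clock gene Nr1d1 on the opposite strand, and the strand setting of the counting is not given. Nr1d1 stood at 28.6, 32.5 and 31.1 FPKM in the libraries labelled Tet2 cKO, against 31.6, 30.4 and 17.6 FPKM in WT, a log2 difference of 0.21 (SE 0.182) that was -0.0093 without WT replicate 3.

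Thrb (ENSMUSG00000021779, chromosome 14, 17660261 to 18038090, plus strand), the gene of thyroid hormone receptor beta, stood at 2.77, 3.38 and 3.02 FPKM in the libraries labelled Tet2 cKO, against 3.11, 2.76 and 2.71 FPKM in WT. The groups overlapped, and the log2 difference was 0.09 (95% interval -0.16 to 0.33; edgeR unadjusted p = 0.443, adjusted p = 0.9999) and 0.06 without WT replicate 3. Per length, Thra exceeded Thrb by a factor of 22.8 ± 1.87 under the Tet2 cKO label and 23.7 ± 2.78 in WT (SD, n = 3 each). All 15 listed receptors and coregulators were tested and none passed, 6 above 0 and 9 below, with a median of -0.02 and a range of -0.16 to 0.11. The corepressor Ncor1 differed by 0.04, its partner deacetylase Hdac3 by -0.02 and the corepressor subunit Gps2 by 0.04, and all 3 changed sign between alternatives.

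Genes known to be induced by thyroid hormone in brain cells lay on both sides of 0. Of 18 listed, 15 were tested and none passed, 6 above 0 and 9 below, with a median of -0.05. The most abundant were the myelin gene Mbp at -0.05 (SE 0.0939), the transcription factor gene Klf9 at 0.14 (SE 0.145), the postsynaptic gene Nrgn at 0.10 (SE 0.212) and Itih3 at -0.37 (SE 0.140). Mbp, Klf9 and Nrgn changed sign when WT replicate 3 was left out, and Itih3 was then at -0.17. Hr, a nuclear corepressor gene directly induced by triiodothyronine, and Dbp, also an output gene of the circadian clock, were named after their values were seen. Hr stood at 5.96, 6.49 and 6.05 FPKM in the libraries labelled Tet2 cKO, against 7.50, 7.60 and 6.48 FPKM in WT, a log2 difference of -0.23 (95% interval -0.43 to -0.03; edgeR unadjusted p = 0.0273, adjusted p = 0.9999). Its groups overlapped only where Tet2 cKO replicate 2 lay just above WT replicate 3. Dbp stood at 31.0, 32.2 and 30.5 FPKM in the libraries labelled Tet2 cKO, against 29.8, 27.9 and 16.5 FPKM in WT, a log2 difference of 0.33 (SE 0.178) that was 0.12 without WT replicate 3.

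**Figure D4:**
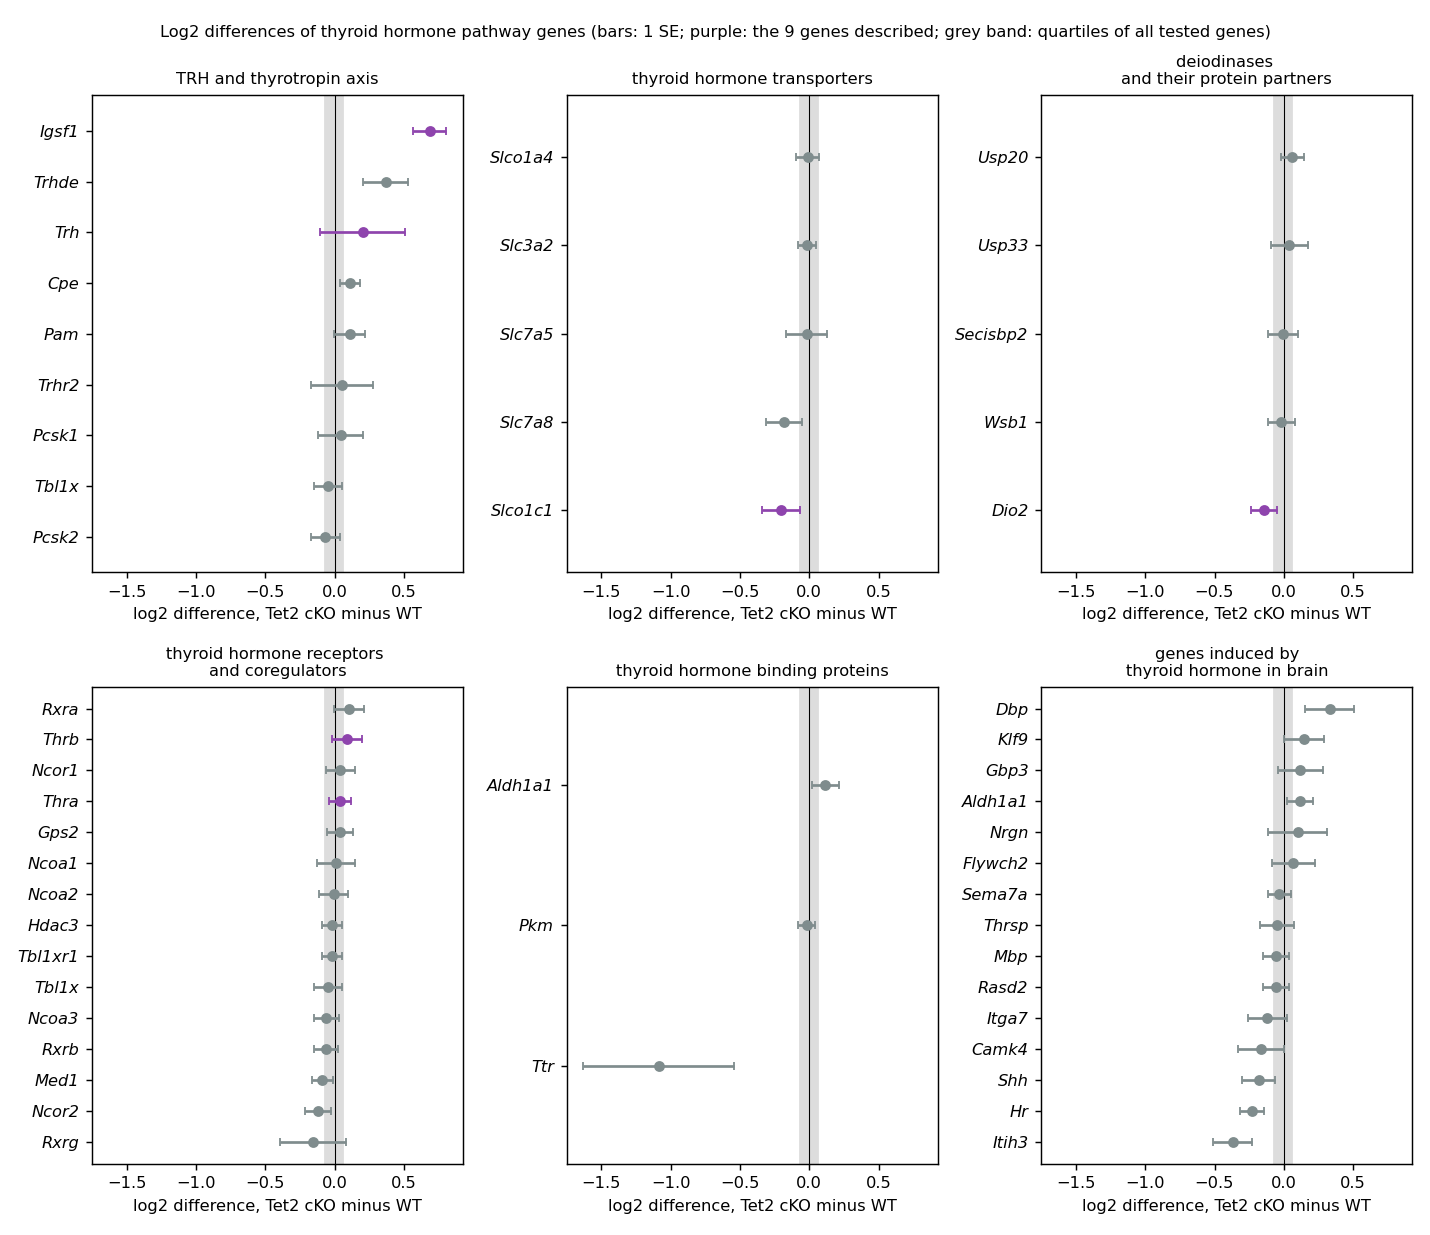
Log2 differences (Tet2 cKO label minus WT, x axis) of tested genes of 6 thyroid hormone lists, 1 list a panel, with 1 transporter not drawn; bars are 1 SE, purple points are genes among the 9 described, grey points are other genes, and the grey band spans the quartiles of all tested genes (-0.07 to 0.06). Igsf1 lies farthest to the right at 0.69 and Ttr farthest to the left at -1.09. Igsf1 was not tested, and none of the others passed the edgeR test.

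Across the 6 lists, 50 different genes other than Igsf1 were tested. Groups that did not overlap were found for 2 of them, Trhde and Dbp, both with the Tet2 cKO label higher, against 3.34% of all tested genes in that direction and 3.46% in the other. Of the 5 tested genes among the 9 other than Igsf1, 0 passed and 0 had groups that did not overlap, where 6.8% of all tested genes had groups that did not overlap.

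In level per length, the order under the Tet2 cKO label was Thra, Igsf1, Slco1c1, Dio2, Thrb, Trh, Trhr, Crym and Dio3. The ranges of Igsf1 and Slco1c1, of Trh and Trhr, and of Crym and Dio3 overlapped there. In WT, Slco1c1 came before Igsf1 with ranges that did not overlap, and the order was otherwise the same, with no overlap between neighbours. The ratio of Igsf1 to Slco1c1 was 0.914, 1.22 and 1.12 under the Tet2 cKO label, against 0.610, 0.478 and 0.652 in WT. Igsf1 was picked for its difference, which enters this ratio. Among all tested genes Thra stood at the 96.4th percentile of mean level, Slco1c1 at the 69.6th, Igsf1 at the 63.4th and Trh at the 6.67th.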

How the data were processed

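The 6 libraries of habenula total RNA were grouped by the genotype in their titles. The authors deposited 1 table with raw counts per gene and FPKM values, per the file headers, and the FPKM equal the count scaled by exonic size and library total within 0.005. The build is mm10 and the tools are HISAT2 2.0.1, cutadapt 1.9.1, SAMtools 0.1.19 and FastQC 0.10.1, per the submitters' processing notes. Which tool counted reads, on which annotation and with which strand setting, is not given in the sources used here. Of 52083 identifiers shared with GENCODE release M21 on GRCm38, only 1494 had the table's start and end. The gene positions printed are therefore those of GENCODE, joined by identifier. The neighbours of Igsf1 and their order were taken from the start positions of the deposited table.

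Counts were tested with edgeR 4.0.16 in R 4.3.3 (quasi-likelihood, TMM, two-sided, no covariate) over 14539 genes, those averaging 1 FPKM or more, with Benjamini-Hochberg adjustment at 0.05. Differences are Tet2 cKO minus WT and intervals are 95%. Standard errors are the log2 difference over the root of the F statistic. Alternatives were DESeq2 1.42.0, RLE factors, no filter, limma 3.58.1 on log2(FPKM + 1) and log2(FPKM + 0.1), a replicate block, and leaving out each library. Counting errors cover sampling of reads only. The common biological coefficient of variation was 10.4%. No library was a copy of another (pairwise chi-square per gene 4.09 to 20.3). The highest values, 19.0 to 20.3, were those of WT replicate 3 with WT replicates 1 and 2 and Tet2 cKO replicates 2 and 3. All other pairs were at 10.4 or less.

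The 9 genes and all lists were chosen with earlier results of these data known. Named genes were the 9, the 4 most abundant tested genes of each pathway list, the 3 most abundant of a marker list and those at 0 in every library, the sex-linked genes, the 5 genes most like Igsf1 without predicted genes, its 3 tested neighbours on each side, and genes overlapping a member. Any other gene was named after its values were seen. 1 transporter enters the list counts and medians and is not reported here on its own.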

Additional observations from a re-analysis of the deposited data

How the results depend on the processing

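The number of genes called, 0 in the edgeR test, was 4 with DESeq2, 49 without a filter on low values and 0 to 3 when single libraries were left out, with 1 without WT replicate 2 and 3 without WT replicate 3. RLE factors, both limma fits and the replicate block gave 0. In all 12 alternatives, 0 of the 8 genes other than Igsf1 were called where they were fitted. Igsf1 kept a difference above 0 in all 12, from 0.58 to 0.85, and was at 0.70 with the replicate block. Without Tet2 cKO replicate 3 the sign turned for Trh (-0.11, up to 0.38 over all libraries left out) and Thra (-0.016, up to 0.11). The cause was not tested. Dio2 (-0.21 to -0.08), Slco1c1 (-0.33 to -0.09) and Thrb (0.0076 to 0.16) kept theirs. List medians near 0 were less stable. The deiodinase median lay between -0.078 (without WT replicate 1) and 0.026 (without WT replicate 2) over all libraries left out. Without a filter on low values the medians of binding proteins and of hormone-induced genes were 0.054 and 0.023, as genes of few counts then enter the lists. Deviations of same-numbered libraries of the groups had correlations of -0.03, 0.15 and -0.10 for numbers 1, 2 and 3. Those of differently numbered libraries lay between -0.18 and 0.17. With 3 libraries a group, these values cannot show whether the numbers pair anything. The replicate block called 0 genes, as the main fit did. Depth limited Dio3, Crym, Trhr and Trh, with at most 76 counts a library.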

Other observations

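Tshb, which encodes the beta subunit of thyrotropin, showed 43, 38 and 30 counts across the libraries labelled Tet2 cKO, against 54, 46 and 30 counts in WT. Its partner subunit gene Cga had 0 counts in every library, as did the anterior pituitary hormone genes Gh, Prl and Fshb. Pou1f1, the transcription factor of thyrotroph cells, showed 1, 0 and 1 counts across the libraries labelled Tet2 cKO, against 0, 0 and 3 counts in WT. The thyrotropin receptor gene Tshr showed 3, 0 and 1 counts across the libraries labelled Tet2 cKO, against 0, 5 and 2 counts in WT. Lhb, the beta subunit gene of luteinizing hormone, is listed under 2 identifiers. The identifier ENSMUSG00000118462 showed 32, 34 and 20 counts across the libraries labelled Tet2 cKO, against 28, 40 and 54 counts in WT, and the other had 0 counts in every library.

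The thyroxine-binding globulin gene Serpina7 was at most 0.02 FPKM in any library. The liver hormone transporter gene Slco1b2 showed 4, 4 and 7 counts across the libraries labelled Tet2 cKO, against 5, 1 and 7 counts in WT.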
